A study of Mus musculus with 6 samples.

Results

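The developmental homeobox genes outside the Hox clusters and the Pax genes were followed in a list of accessible chromatin regions of mouse embryonic stem cells (mESCs). The group was chosen by symbol alone. It took every protein-coding gene of the RefSeq annotation of the mouse genome (GRCm38, the assembly that mm10 names) that is a numbered Dlx, Lhx, Pax, Irx or Msx gene, a gene of the sine oculis homeobox family (Six6, for example), an Nkx gene, or a Pou3f or Pou4f gene. This gave 59 of 21774 protein-coding genes, on 16 chromosomes, with 126 annotated transcription start sites (TSSs). The rule itself uses no measured value, although the group was picked with earlier results of these data known.

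Accessible DNA was profiled by ATAC-seq, which uses the Tn5 transposase to insert sequencing adapters into open chromatin, in 6 samples that fall into 3 conditions of 2 replicates: untreated V6.5 mESCs, an established line, and mESCs carrying a ZBTB21 degron, which allows the zinc-finger protein ZBTB21 to be degraded, at 0 h and at 6 h. The results below come from 1 list of 41014 peaks for the untreated condition, which pools the 2 replicates, and the degron samples were not analysed here. The list gives each peak its position and a score between 540 and 953 (median 696), and no value per replicate, so that the depth behind a peak is unknown and no difference between replicates could be measured. The labels describe V6.5 cells grown with irradiated mouse embryonic fibroblasts as feeder cells, in medium with fetal bovine serum and leukaemia inhibitory factor, and the study's methods name in addition the inhibitors CHIR99021 and PD0325901. A treatment text about doxycycline in degron cells stands in the labels of all samples, including those whose cell line is V6.5 and whose treatment is given as untreated.

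Homeobox genes encode transcription factors that bind DNA through a homeodomain and assign regional and cell identity in the embryo. Pax proteins carry a paired domain, with or without a homeodomain, LIM-homeodomain (Lhx) proteins add LIM domains that bind cofactors, and POU proteins pair the homeodomain with a POU-specific domain that reads the octamer motif. Most of these genes start in CpG islands, and in mESCs they are known targets of Polycomb repression that are switched on later, as cells differentiate.

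The cell type on the labels was compared with marker genes. Of 12 markers of embryonic stem cells, 4 had a peak within 1 kb of a TSS, 9 within 5 kb and 11 in the gene span plus 20 kb on each side. The best peak within 1 kb of Pou5f1, which encodes the pluripotency factor Oct4, scored 861, and that of Nanog scored 805. Klf4 had no peak in that window, so absence from the list was also seen at a gene that these cells are known to express. Of 12 fibroblast markers, 3 had a peak within 1 kb (Thy1 829, Pdgfra 687, Pdgfrb 602) and 7 in the wider window, while Twist1, Twist2, Prrx1, Postn and Dcn had none there. Of 10 markers of neural progenitors, 4 had a peak within 1 kb and 6 in the wider window. Within 1 kb the stem cell, fibroblast and neural progenitor markers thus stood at 33.3%, 25% and 40%, compared with 29.9% of all protein-coding genes. Within 5 kb they stood at 75%, 25% and 60%, compared with 41%, and in the wider window at 91.7%, 58.3% and 60%, compared with 73%. At 1 kb the counts thus did not set the stem cell markers apart. What feeder cells or differentiating cells added to the list was not tested.

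The promoters below are 4 picked cases and do not show the range within the group. Each line holds 300 bases of RefSeq sequence on GRCm38.p6, from 250 bases before to 50 bases after the 5′-most TSS in the sequence table, with every CG dinucleotide in capitals. Such a table entry was found for 43 of the 59 genes. Six6 (chr12:72939632-72939931, plus strand) had a peak over its TSS, Six5 (chr7:19094294-19094593, plus strand) had the highest-scoring peak within 1 kb, Pax6 (chr2:105668646-105668945, plus strand) had a peak over its 5′-most TSS, and Pou3f4 (chrX:110814129-110814428, plus strand) lay farthest from any peak.
Six6: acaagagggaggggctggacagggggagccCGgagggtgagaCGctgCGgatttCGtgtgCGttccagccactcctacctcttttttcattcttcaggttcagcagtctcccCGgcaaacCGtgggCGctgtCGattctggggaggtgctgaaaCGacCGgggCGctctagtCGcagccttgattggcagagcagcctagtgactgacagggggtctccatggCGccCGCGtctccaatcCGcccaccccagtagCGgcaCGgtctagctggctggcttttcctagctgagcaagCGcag
Six5: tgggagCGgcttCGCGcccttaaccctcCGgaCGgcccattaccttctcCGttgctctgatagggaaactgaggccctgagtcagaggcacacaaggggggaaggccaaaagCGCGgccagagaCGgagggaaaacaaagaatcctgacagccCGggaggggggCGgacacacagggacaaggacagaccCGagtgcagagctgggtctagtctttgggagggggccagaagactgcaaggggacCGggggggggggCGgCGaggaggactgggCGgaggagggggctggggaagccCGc
Pax6: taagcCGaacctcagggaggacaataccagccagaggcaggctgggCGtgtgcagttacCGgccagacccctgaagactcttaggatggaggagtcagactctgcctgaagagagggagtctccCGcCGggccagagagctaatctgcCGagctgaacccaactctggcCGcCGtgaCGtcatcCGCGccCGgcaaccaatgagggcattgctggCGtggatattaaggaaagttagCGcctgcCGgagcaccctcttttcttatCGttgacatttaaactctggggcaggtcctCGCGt
Pou3f4: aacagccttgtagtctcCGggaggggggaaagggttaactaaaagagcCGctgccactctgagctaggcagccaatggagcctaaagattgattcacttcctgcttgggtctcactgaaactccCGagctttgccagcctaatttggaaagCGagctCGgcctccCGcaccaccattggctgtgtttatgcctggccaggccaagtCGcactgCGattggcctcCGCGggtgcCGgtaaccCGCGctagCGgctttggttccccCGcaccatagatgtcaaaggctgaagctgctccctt
The 4 windows held 20, 17, 18 and 15 CG dinucleotides at GC contents of 62.3%, 66.0%, 58.7% and 57.7%. The Pou3f4 promoter held the fewest, and its GC content lay near that of Pax6, while its nearest peak was 562 kb away.

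At their start sites, few of the 59 genes carried a listed peak. A peak lay within 1 kb of a TSS in 12 genes (20.3%, Wilson 95% interval 12.0 to 32.3), compared with 29.9% of all protein-coding genes. Within 5 kb the count was 21 (35.6%, interval 24.6 to 48.3), compared with 41% of all genes. In the gene span plus 20 kb on each side it was 43 (72.9%, interval 60.4 to 82.6), compared with 73% of all genes. The share of these genes thus lay below that of all genes next to the TSS and at that of all genes in the wider window, and the interval at 1 kb holds the value of all genes. These intervals cover counting error only, and neighbouring genes such as Dlx1 and Dlx2 can share a peak.

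The genes have fewer annotated TSSs (median 1, compared with 2 over all genes) and shorter spans (median 5.85 kb, compared with 17.2 kb), and both set how much sequence is searched. With the 5′-most TSS of each gene alone, a choice added after seeing the data, 9 of the 59 genes (15.3%) and 25.4% of all genes had a peak within 1 kb. Counted per 100 kb of window, the 59 genes had 2.93 peaks and all genes 2.68. The median number of peaks in the window was 1 for the 59 genes and 2 for all genes, and the mean was 1.68 and 2.36. The number of peaks was thus lower per gene and not lower per length of window. The part of searched length in the lower counts was not tested.

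**Figure D1:**
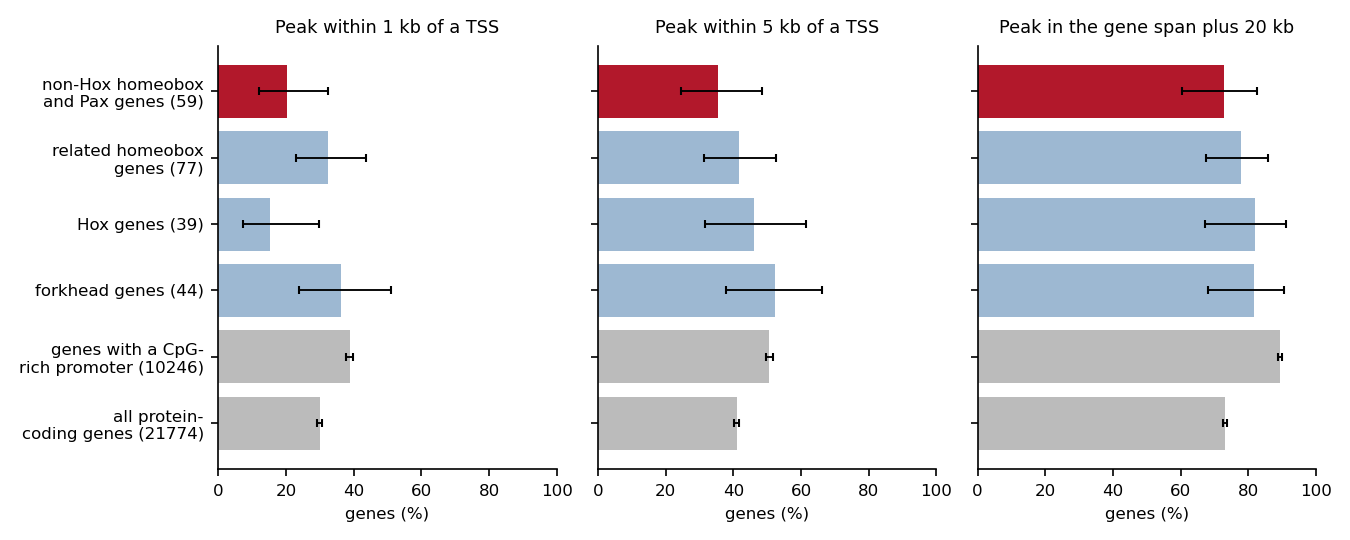
Percent of genes (x axis) with at least 1 listed peak within 1 kb of a TSS, within 5 kb of a TSS, or in the gene span plus 20 kb on each side, for 6 sets of genes with the number of genes in brackets. Bars are shares and lines are Wilson 95% intervals. The non-Hox homeobox and Pax genes stood at 20.3%, 35.6% and 72.9%, and all protein-coding genes at 29.9%, 41% and 73%.

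Promoters of these genes were rich in CpG. A window of 300 bases around the TSS was called CpG-rich when its GC content was above 55% and its observed over expected CpG ratio above 0.6. At any TSS, 46 of the 59 genes (78.0%) had such a window, compared with 47.1% of all genes, and at the 5′-most TSS 32 (54.2%) did, compared with 32.6%. Among all genes with a CpG-rich window, 38.8% had a peak within 1 kb, whereas among the 46 genes of the group 10 did (21.7%, interval 12.3 to 35.6). The upper end of that interval, which covers counting error only and treats genes as independent, lay below 38.8%, and no test was made. The same direction was seen within 5 kb (34.8% of the 46 genes, compared with 50.7%) and in the wider window (71.7%, compared with 89.3%). The 46 genes also had shorter spans (median 5.69 kb, compared with 27.8 kb) and fewer TSSs (median 1.5, compared with 2). The part of searched length in these differences was not tested. Of the 13 genes with no CpG-rich window, 2 had a peak within 1 kb (Dlx6 and Nkx2-3). A GC box (GGGCGG on either strand) was found in the promoter windows of 46 of the 59 genes (78.0%, compared with 53.7% of all genes), and TATAAA on either strand in those of 11 (18.6%, compared with 21.7%).

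Within 1 kb of a TSS, other gene families that pattern the embryo lay on both sides of the 20.3% of the group. Within 5 kb and in the wider window all of them lay above the group, which stood at 35.6% and 72.9%. Of 77 further developmental homeobox genes, such as Otx1 and Isl2, 25 (32.5%) had a peak within 1 kb and 60 (77.9%) in the wider window. This list also holds Pou5f1 and Nanog, which mESCs express. Of the 39 Hox genes, 6 (15.4%) had a peak within 1 kb and 32 (82.1%) in the wider window. Of the 44 forkhead genes, 16 (36.4%) had one within 1 kb and 36 (81.8%) in the wider window. Within 5 kb the shares of these sets, in the same order, were 41.6%, 46.2% and 52.3%. No test was made between these sets.

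The best peaks within 1 kb scored from 547 to 884, above 1.9% to 97.7% of the list. The best such peak had a median score of 692.5 over the 12 genes and of 751 over all genes with one, and it exceeded the median of the list in 6 of the 12 genes (50%) and in 64.9% of all genes with one. In the wider window the median best score was 742, compared with 785 over all genes. A score ranks peaks within the list and is no measure of how open a site was in a given replicate.

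The sine oculis homeobox genes act with Eya and Dach proteins in eye, muscle, ear and kidney development. Six6, a gene of the retina and hypothalamus, had a single peak, chr12:72939408-72940183, which lay over its TSS and scored 857, above 95.6% of the list. Six5, which lies beside the myotonic dystrophy gene Dmpk and is expressed in many tissues, had 6 peaks in its window. The best, chr7:19093653-19094447, ended 97 bp upstream of the 5′-most TSS and scored 884, above 97.7% of the list. A lower-scoring peak near an internal TSS of Six5 had a score of 675. Of its other peaks, 2 lay at the promoters of neighbouring genes, Dmwd on one side and Bhmg1 and Fbxo46 on the other.

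Six4, which lies near Six6 on chromosome 12, had 5 peaks with scores from 732 to 835. The one at 732 lay over an internal TSS, within 1 kb of a start of the neighbour Mnat1. An upstream peak of 806 also lay within 1 kb of a Mnat1 start. Six2, which keeps nephron progenitors, had no peak within 5 kb and 1 intronic peak in the wider window (683). Six3, a forebrain and eye gene, had 1 peak on each side of the gene, with scores of 772 and 631.

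Among the Pax genes, 3 of 9 had a peak within 1 kb and 8 in the wider window. The Pax6 promoter printed above, of a gene needed to form the eye, lay under a peak of score 761 (chr2:105668379-105669063), and 2 more peaks in the gene scored 545 and 765. Pax2, a gene of kidney and midbrain-hindbrain development, had a peak of score 559 over its TSS. A higher-scoring one (850) lay in an intron, more than 51 kb from the nearest TSS. Pax9, a gene of the pharyngeal pouches and teeth, had a peak of score 547 over an internal TSS and 3 others with scores from 582 to 659. In Pax2, Pax6 and Pax9 the promoter peak was thus not the best of the gene, although in Pax6 the scores were close (761 and 765).

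The other Pax genes had their peaks away from the TSS. Pax5, which commits lymphoid cells to the B-cell lineage, had the most of the group, 9 peaks with scores from 581 to 784, of which 8 were intronic and 1 was downstream, and the nearest lay 43.8 kb from its TSS. Pax8, a thyroid and kidney gene, had 7, with scores from 586 to 853, the nearest 4.21 kb upstream of its TSS. Pax7, which marks muscle satellite cells, had 6, with scores from 558 to 783, the nearest 9.82 kb upstream. Pax3, a gene of neural crest and muscle progenitors, had 2 intronic peaks (582 and 712), and Pax4, a gene of pancreatic beta cells, had 2 outside the gene (659 and 689). Pax1, a gene of the sclerotome, had none in its window. These genes differ in span, and Pax5, at 186 kb, is the longest of the group.

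**Figure D2:**
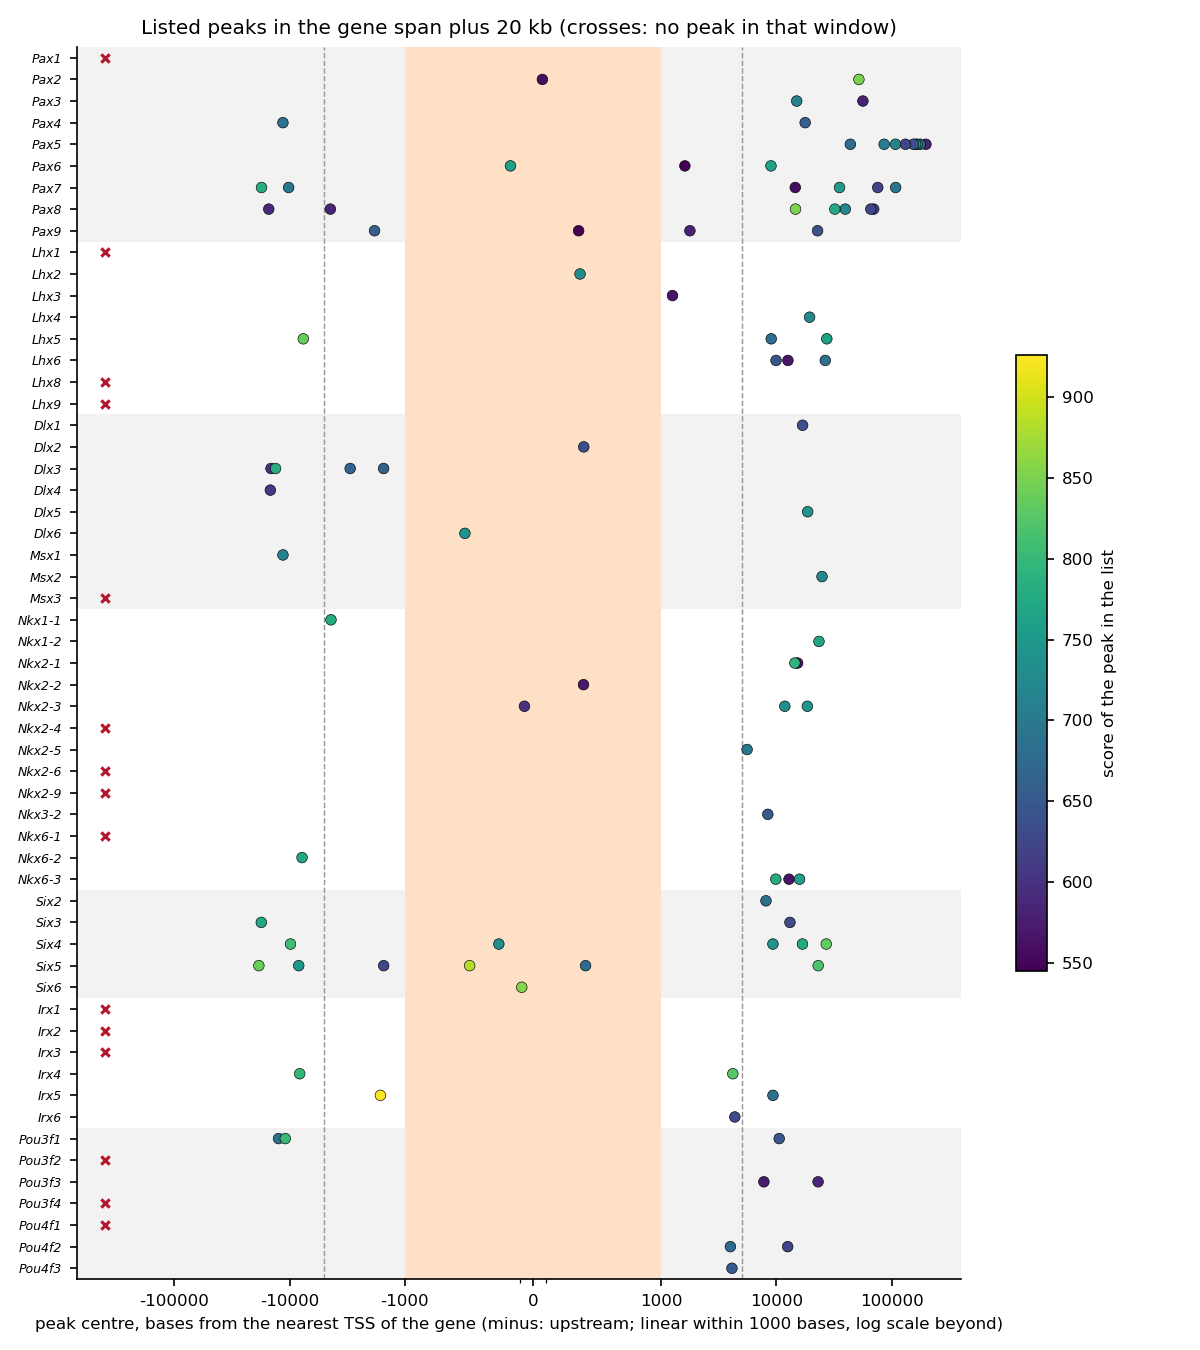
Each point is a listed peak in the gene span plus 20 kb, placed by the distance in bases from its centre to the nearest TSS of the gene (x axis, linear within 1000 bases and on a log scale beyond, upstream to the left) and coloured by its score, with 1 row for each of 57 genes. The orange band marks 1 kb and the dashed lines 5 kb around the TSS, and the crosses at the left edge, which stand for no position, mark the 15 of them with no peak. Most points lie outside the band.

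Of the 8 Lhx genes, 1 had a peak within 1 kb and 5 in the wider window. Lhx2, a gene of forebrain and eye development, had 1 peak of score 729 over an internal TSS, at which the lncRNA gene Gm27197 also starts within 1 kb. Lhx3, a gene of the pituitary and of motor neurons, had 1 peak of 567 that lay 1077 bp from a TSS, just outside the limit. Lhx5 had 3 peaks, the best of them (838) 7.39 kb upstream of its TSS. Lhx6, a gene of cortical interneurons, had 3 peaks with scores from 568 to 686, none within 5 kb, and Lhx4, a pituitary gene, had an intronic peak of 726. Lhx1, Lhx8 and Lhx9 had none in their windows.

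The Dlx genes lie in pairs that share enhancers, and 2 peaks were counted for both genes of a pair. The peak chr2:71545687-71547027, which at 1341 bp was the widest of the group and scored 639, lay over the TSS of Dlx2 and downstream of Dlx1. The peak chr6:6862631-6862975, with a width of 345 bp and a score of 742, lay 359 bp upstream of the TSS of Dlx6, near the start of the lncRNA gene Dlx6os1, and downstream of Dlx5. Dlx1 and Dlx2 act in forebrain interneurons, and Dlx5 and Dlx6 in jaw and limb. Dlx1 and Dlx5 had no other peak in their windows. Dlx3, a gene of skin and placenta, had 4 upstream peaks with scores from 601 to 784, the nearest of them 1352 bp from the TSS, and Dlx4 had 1 upstream peak of 606. Msx1 and Msx2, genes of teeth and skull, had 1 peak each, 11.2 kb upstream (714) and 24.7 kb from the TSS downstream (724), and Msx3 had none.

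The middle 300 bases of the Dlx5 and Dlx6 peak (chr6:6862653-6862952, plus strand) are shown because it was the only listed peak in the window of either gene, and those of the peak upstream of Irx5 (chr8:92356018-92356317, plus strand) because it had the highest score of the group, with CG dinucleotides in capitals.
Dlx6: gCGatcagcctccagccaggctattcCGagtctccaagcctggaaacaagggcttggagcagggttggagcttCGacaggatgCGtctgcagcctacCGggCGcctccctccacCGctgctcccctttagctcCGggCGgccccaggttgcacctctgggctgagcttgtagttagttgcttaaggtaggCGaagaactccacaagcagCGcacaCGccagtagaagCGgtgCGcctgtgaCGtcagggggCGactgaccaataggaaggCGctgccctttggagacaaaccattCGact
Irx5: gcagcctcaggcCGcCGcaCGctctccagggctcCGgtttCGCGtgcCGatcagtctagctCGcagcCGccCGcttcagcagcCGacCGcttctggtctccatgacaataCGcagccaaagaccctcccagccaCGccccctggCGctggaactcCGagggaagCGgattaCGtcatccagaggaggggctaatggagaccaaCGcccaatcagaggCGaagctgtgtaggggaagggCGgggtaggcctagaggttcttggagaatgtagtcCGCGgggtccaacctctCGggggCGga
These stretches held 18 and 25 CG dinucleotides at GC contents of 61.0% and 64.7%, so that both peaks lay in CpG-dense sequence although the promoter window of Dlx6 itself was not CpG-rich, with a GC content of 46.0%.

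Among the 14 Nkx genes, a peak within 1 kb was listed for 2. Nkx2-3, a gene of spleen and gut, had a peak of score 599 over its TSS and 2 downstream peaks of 734 and 747. Nkx2-2, a gene of the ventral neural tube and of the pancreas, had 1 peak of 570 over an internal TSS that no curated transcript uses. Nkx2-1, a gene of thyroid, lung and forebrain, had 2 peaks (565 and 792) more than 14 kb from its TSSs. Nkx2-5, a heart gene, had 1 peak of 699, 5.22 kb from a TSS, and Nkx1-1 had 1 peak of 778, 4.19 kb upstream. The peak counted for Nkx1-2 (771) lay at the promoter of the neighbour Oat. Nkx3-2 and Nkx6-2 had 1 peak each (652 and 772), and Nkx6-3, a stomach gene, had 3 (566 to 779). Nkx2-4, Nkx2-6, Nkx2-9 and Nkx6-1 had none.

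No Irx or POU gene had a peak within 1 kb. Irx5, a gene of heart and retina, came closest, with the peak chr8:92355704-92356632 at 1164 bp upstream, which scored 926, above 99.5% of the list, and lay at the start of the lncRNA gene Crnde. Irx4, a gene of the cardiac ventricle, had peaks of 798 and 825, the nearer 3.89 kb from a TSS, and Irx6 had 1 of 627 in an exon. Irx1, Irx2 and Irx3 had none in their windows. Of the POU genes, Pou4f2, needed by retinal ganglion cells, had 2 peaks (622 and 676), and Pou4f3, needed by hair cells of the ear, had 1 (655), both nearest to a TSS at 3.87 and 3.91 kb. Pou3f1, which acts in epiblast and Schwann cells, had 3 peaks (645 to 801), none within 5 kb, and Pou3f3 had 2 (574 and 586). Pou3f2, Pou3f4 and Pou4f1, genes of neurons and the inner ear, had none.

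The distance to the nearest peak had a median of 9.82 kb over the 59 genes and 8.70 kb over all genes. A peak lay over a TSS in 10 genes (16.9%, compared with 26% of all genes). More than 20 kb from any peak were 19 genes (32.2%, compared with 34.8% of all genes), and more than 100 kb were 6 (10.2%, compared with 14.2%). Among the last were Pou3f4 (562 kb), Nkx2-6 (535 kb), Irx1 (382 kb), Pou3f2 (120 kb) and Nkx2-4 (108 kb). Pou3f4 lay in a stretch of 2281 kb without a listed peak (chrX:109095767-111376856) that holds the starts of 4 protein-coding genes, its own included. Of all gaps between neighbouring peaks, which had a median of 19.9 kb, 0.102% were longer. Gaps around gene starts had the higher median given below, so 0.102% is not a share among genes. Nkx2-6 lay in a stretch of 1256 kb (chr14:68450905-69707072), with 14 coding starts, its own included, and Irx1 in one of 837 kb with no coding start but its own. For the 53 genes with no peak over the 5′-most TSS, the gap around it had a median of 62.2 kb, compared with 83.9 kb over the 17090 such genes of the whole annotation. Long peak-free stretches around single genes thus stood beside a median that was not longer than that of all genes.

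**Figure D3:**
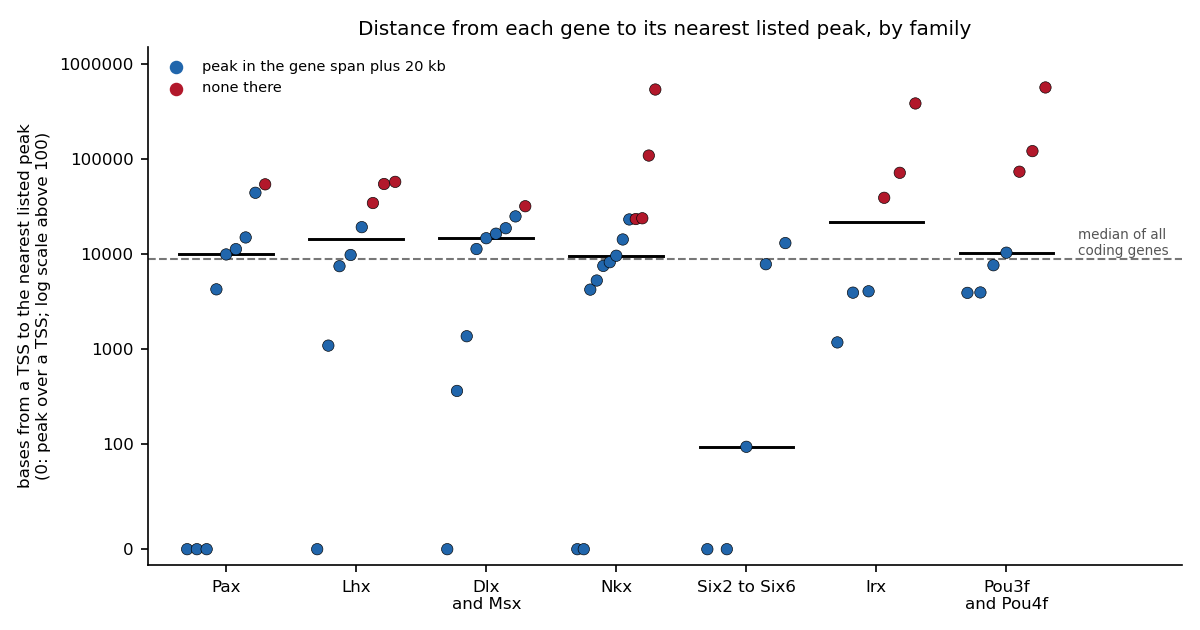
Distance in bases from a TSS of each of 57 genes to the nearest listed peak (y axis, 0 for a peak over a TSS, log scale above 100), by family (x axis), with black lines for family medians and a dashed line for the median of all protein-coding genes, 8.70 kb. The genes more than 100 kb away are Nkx, Irx and POU genes.

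The 43 genes with a peak in the window had 97 distinct peaks. With the 2 shared peaks counted once for each gene, this made 99 pairs of gene and peak, with the peak upstream of the gene in 27, downstream in 32, in an intron in 19 and over an exon in 21. In 7 pairs the peak was within 1 kb of the TSS of another coding gene, Dlx2 and Dlx6 included. In 40 of the 43 genes at least 1 peak was not at such a promoter, the exceptions being Dlx1, Dlx5 and Nkx1-2. The median score of the 97 peaks was 686, compared with 696 over the list, and the median width was 605 bp, compared with 547 bp. Of the 97 peaks 17.5% lay within 1 kb of a coding TSS, compared with 16.1% of the list, and 13 of the 97 lay that close to a TSS of the group. The 97 were taken from gene spans plus 20 kb, and the list was not limited in this way.

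Short motifs were counted on both strands in the 500 bases at the centre of each peak, and a match is a description of the letters, not a bound site. The GC box GGGCGG was found in 46 of the 97 peaks (47.4%) and in 28.5% of all peaks, and CAGGGGGC, a part of the CTCF motif, in 12 (12.4%) and 5.49%. The homeodomain core TAATTA was found in 11 (11.3%) and 7.19%, and the octamer ATGCAAAT in 5 (5.15%) and 4.09%. Lower shares than in all peaks were counted for the SOX core CATTGT, in 14 (14.4%) and 22.9%, and for TATAAA, in 6 (6.19%) and 16.1%. The peaks of the group had a median GC content of 55%, compared with 51.4% in all peaks, and the part of GC content in these shares was not tested. The motifs without G or C did not share a direction, since TAATTA had a higher share in the group and TATAAA a lower one. Beyond 1 kb of any coding TSS, 9 of 80 peaks held the CTCF part, compared with 5.38% of all such peaks, and 14 of 80 the SOX core (17.5%), compared with 25.1%.

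**Figure D4:**
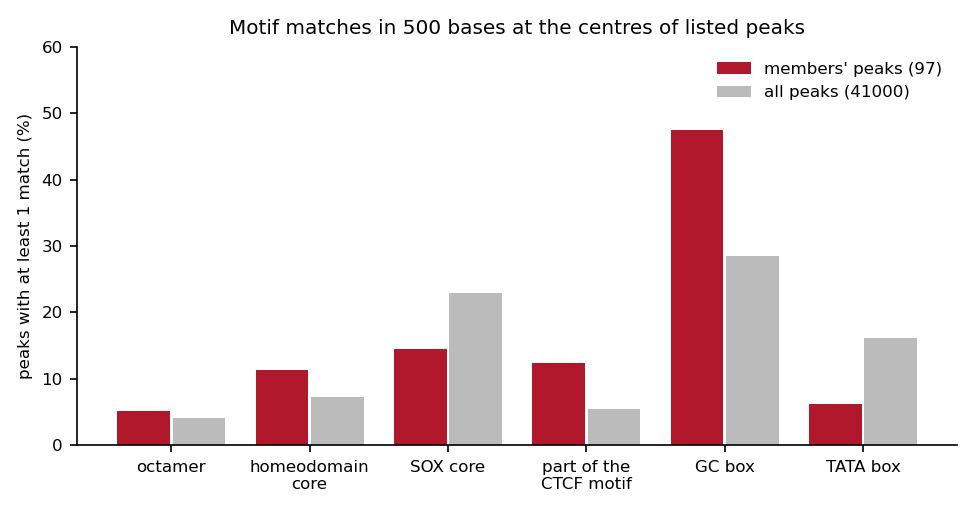
Percent of peaks (y axis) with at least 1 match to each of 6 motifs (x axis) in 500 bases at the peak centre, for the 97 peaks of the 59 genes (red) and the 41000 peaks of the list whose sequence was read (grey). The GC box stood at 47.4% and 28.5% and the SOX core at 14.4% and 22.9%.

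The octamer is the site read by POU proteins, Oct4 and the Pou3f proteins among them, so the 5 peaks that hold it are shown by 40 bases around each match, on the strand that reads ATGCAAAT, with the octamer in capitals. They lay at Pax8 (score 777), Lhx6 (649), Nkx2-1 (565), Nkx2-3 (747) and downstream of Six4 (835), and the Six4 peak held 2 matches. Their positions are chr2:24443371-24443410 (minus), chr2:36094027-36094066 (plus), chr12:56520569-56520608 (plus), chr19:43630873-43630912 (plus), and chr12:73086064-73086103 (plus) and chr12:73086187-73086226 (minus) for Six4.
Pax8: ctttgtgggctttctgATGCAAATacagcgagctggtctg
Lhx6: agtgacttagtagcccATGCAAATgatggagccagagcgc
Nkx2-1: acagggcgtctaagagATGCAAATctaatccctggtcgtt
Nkx2-3: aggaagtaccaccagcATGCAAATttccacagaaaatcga
Six4 plus: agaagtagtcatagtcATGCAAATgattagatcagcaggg
Six4 minus: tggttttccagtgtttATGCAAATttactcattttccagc
None of these matches lay within 5 kb of a TSS of its gene. Of the 13 peaks within 1 kb of a TSS of the group, 0 held an octamer, compared with 2.47% of all peaks within 1 kb of a coding TSS, a share at which 13 peaks are too few to read anything from 0.

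Chromatin loops of the study were the last readout that the genes were placed in. The study ranked loops by ZBTB21 binding and by the change of cohesin after ZBTB21 degradation over the accessible sites inside each loop. By its methods, only loops over 500 kb were classed. Its list holds the top 500 with both ZBTB21 peaks and reduced cohesin peaks (ZBTB21-responsive) and the bottom 500 without them (less-responsive), with anchors of 25 kb. Since the ranking used the peaks, loop class and number of peaks are not independent. Of the 59 genes, 12 (20.3%, interval 12.0 to 32.3) overlapped a responsive loop, its anchors included, compared with 15.9% of all genes. In less-responsive loops there were 4 (6.78%, interval 2.67 to 16.2), compared with 6.24% of all genes. Among the Hox genes 17 of 39 (43.6%) and among the forkhead genes 9 of 44 (20.5%) overlapped a responsive loop. The Hox genes had a median of 9 other coding genes within 100 kb, so 1 loop can hold several of them. The interval of the 59 genes holds the value of all genes in both classes.

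Several of the 12 genes in responsive loops shared a loop. Six4 and Six6 shared a loop of 725 kb (chr12:72825001-73550000) with 23 peaks, and Irx3, Irx5 and Irx6 shared one of 1500 kb (chr8:91175001-92675000) with 36 peaks. Pax2, Lhx3, Lhx6 and Msx2 lay in 3 loops each, Nkx2-5 in 2 and Pax7 in 1. A peak in the wider window was listed for 11 of these 12 genes, all but Irx3, and a peak within 1 kb for 4, Pax2 among them. Over all genes in responsive loops the shares were 84.4% and 33.9%.

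The 4 genes in less-responsive loops were Pax1, Lhx9, Nkx3-2 and Irx1, with 1 loop each. The loop of Irx1 spanned 1525 kb and held 3 peaks, that of Lhx9 950 kb and 8 peaks, that of Pax1 725 kb and 5 peaks, and that of Nkx3-2 700 kb and 1 peak. Only Nkx3-2 had a peak in its own window. Over all genes in less-responsive loops 34.1% had a peak in the window, and 73.4% of genes in neither class did. With loops reduced to their anchors, 4 of the 59 genes (6.78%, compared with 3.49% of all genes) remained in the responsive class and 2 (3.39%, compared with 1.77%) in the less-responsive class.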

How the data were processed

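ATAC-seq was performed in untreated V6.5 mESCs (2 replicates) and in ZBTB21-degron mESCs at 0 h and 6 h (2 replicates each), of which the degron samples were not analysed here. For the untreated condition the authors deposited 1 peak list with mm10 coordinates and a score for each of 41014 peaks, and no read counts. The submitters' processing notes name cutadapt 2.6, Bowtie2 2.3.5.1 and MACS2 2.1.1, and further steps for ATAC-seq, including any shift of reads for Tn5 and the overlap rule between replicates, are not given in the sources used here. For its ChIP-seq peaks the study describes an irreproducible discovery rate (IDR) threshold of 0.05. The smallest score in the list, 540, equals the scaled value of that threshold in the IDR program, and on this basis alone the column was taken as a scaled IDR score. A site absent from the list is one that did not pass these steps, which is not a measurement of closed chromatin.

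TSSs of all 21774 protein-coding genes were the starts of their RefSeq transcripts on GRCm38.p6 (58496 TSSs). A peak was counted when at least 1 bp overlapped the window. The loops, with anchors of 25 kb, came from the study's list. Shares have Wilson 95% intervals, which cover counting error only and treat genes as independent. With 1 pooled list and no value per replicate, no test between samples was made. The members, gene lists and motifs were chosen with earlier results of these data known. The genes named were all members with a peak within 1 kb, all without a peak in the gene span plus 20 kb, the 5 with the most peaks and the 5 with the highest score there, and all in a loop, with the remaining members added by family. The results of 2 members are not reported here singly and the figures of single genes leave them out. Counting was tested on simulated peaks against a direct count (9005 checks, 0 differed). CG content and motifs were read from the genome, and promoter sequences printed came from RefSeq. Of 78 related homeobox genes listed, 1 had no entry under its symbol. Peaks on unplaced sequences had no sequence read. The versions were Python 3.11.15, pandas 2.3.3, numpy 2.4.6, matplotlib 3.10.9 and scipy 1.17.1.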

Additional observations from a re-analysis of the deposited data

How the results depend on the processing

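Across 6 results, 28 values were computed under alternatives, of which 19 stayed within 1.5 times the reported value and 9 did not. With only peaks above the median score, a list that holds fewer peaks by construction, a peak lay within 1 kb of a TSS in 6 of the 59 genes, within 5 kb in 9 and in the gene span plus 20 kb in 28, and the median number of peaks per gene there was 0 (1 over all genes). The shares of all genes were then 19.4%, 26.9% and 58.9%. Without the 20 kb flanks 22 genes (37.3%, compared with 49.6% of all genes) had a peak in the gene span and the median was 0 (0 over all genes), and with flanks of 50 kb the median was 2 (4 over all genes). With loop anchors alone, 4 genes overlapped a responsive loop (6.78%, compared with 3.49% of all genes) and 2 a less-responsive loop (3.39%, compared with 1.77%). Curated transcripts alone gave 11 genes with a peak within 1 kb (18.6%, compared with 27.5% of all genes), without Nkx2-2, and the 5′-most TSS alone, chosen after seeing the data, gave 9 (15.3%, compared with 25.4%), without Lhx2, Nkx2-2 and Pax9. A distance of 2.5 kb gave 15 genes (25.4%, compared with 34.9%). Under these choices of TSS, distance and score the share of the 59 genes near a TSS stayed below that of all genes. The share in the wider window depended more on the choice. With flanks of 50 kb it was 83.1%, compared with 81.9% of all genes. With flanks of 10 kb it was 59.3%, compared with 65.6%, and with peaks above the median score 47.5%, compared with 58.9%. No paired analysis was possible because the list holds no values per replicate, and for the same reason no replicate could be left out. The unknown depth of the list limits what can be said of a site with no peak.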

Other observations

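Peaks around the genes were counted over a wider span. Within 100 kb of the 5′-most TSS the 59 genes had a median of 4 peaks and 1 other protein-coding gene, compared with 5 peaks and 3 genes over all protein-coding genes. The median number of peaks there was 6 for the Dlx and Msx genes, 5 for the Pax genes, 4.5 for the Lhx genes, 4 for Six2 to Six6, 3.5 for the Nkx genes and 3 for the Irx and for the Pou3f and Pou4f genes. By length of window, Six2 to Six6 had 5.74 peaks per 100 kb, the Pax genes 3.66, the Dlx and Msx genes 2.74, the Pou3f and Pou4f genes 2.58, the Nkx genes 2.22, the Lhx genes 1.80 and the Irx genes 1.79. Peaks at the promoters of neighbouring coding genes, such as Mnat1 near Six4 and Dmwd near Six5, are counted in these rates. These sets have between 5 and 14 genes, and no test was made between them.

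For 19 of the 59 genes (32.2%, compared with 22.6% of all protein-coding genes) a TSS of another gene, most often a lncRNA gene, was annotated within 1 kb of one of their own, among them Lhx1os at Lhx1, Pantr1 at Pou3f3 and Gm26973 at both Nkx2-1 and Nkx2-9. A peak within 1 kb was listed for 4 of these 19 genes and for 12 of all 59.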
